A study of Mus musculus with 3 samples.

Results

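The genes described here form a pathway that sets developmental timing: the RNA-binding proteins Lin28a and Lin28b, the let-7 microRNA genes Mirlet7b, Mirlet7d and Mirlet7i, the ubiquitin ligase Trim71, the chromatin protein Hmga2 and the RNA-binding proteins Igf2bp1, Igf2bp2 and Igf2bp3. The list has 10 names. A member was measured where a probe set carried its symbol alone, and 8 of the 10 were measured, among 22180 genes in all. Igf2bp1 shared its probe set with a second symbol, and no probe set was named Igf2bp2, so neither was analysed here.

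Expression was measured on 3 arrays of 1 group, with no treated or mutant group beside it. Each array held biotin-labelled total RNA from neurospheres, floating clonal colonies of neural precursors, grown from the ventricular-subventricular zone (V-SVZ) of CD1 wild-type pups at postnatal day 8. Per the labels, clonal plating at 10 cells per microlitre was followed by 7 days in medium with EGF (20 ng/ml) and FGF (10 ng/ml), and pups were cultured apart. The labels do not tie an array to a pup, so the spread between arrays may be technical. No p-value here can be read as variation between pups, and most rest on a spread pooled over genes.

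LIN28 proteins bind the precursors of let-7 microRNAs and block their maturation, and mature let-7 in turn represses LIN28, TRIM71, HMGA2 and IGF2BP mRNAs. Early stem cells sit on the LIN28 side of this loop and later cells on the let-7 side. In neural stem cells Hmga2 supports self-renewal and is known to decline with age while let-7b increases. The IGF2BP proteins bind and stabilise mRNAs, and IGF2BP1 and IGF2BP3 are mostly made in embryonic and tumour cells.

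The mature let-7 sequences are shown because the seed, the stretch that pairs with target mRNAs, is what the family shares. Sequences are from RefSeq (GRCm38.p6), written 5′ to 3′, with the seed (bases 2 to 8) in capitals.
let-7b-5p: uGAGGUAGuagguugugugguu
let-7d-5p: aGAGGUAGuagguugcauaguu
let-7i-5p: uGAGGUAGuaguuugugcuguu
let-7a-5p: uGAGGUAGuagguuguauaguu
let-7c-5p: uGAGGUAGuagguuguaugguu
let-7e-5p: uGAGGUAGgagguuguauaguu
let-7f-5p: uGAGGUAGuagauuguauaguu
let-7g-5p: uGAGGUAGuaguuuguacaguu
miR-98-5p: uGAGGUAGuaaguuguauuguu
All 9 carry the seed GAGGUAG, and so do 11 of the 1674 distinct mature microRNAs in RefSeq's set. Counted from 1 at the 5′ end, let-7d differs from let-7b by U1A, U16C, G17A and G19A, and let-7i differs from let-7b by G12U, U18C and G19U. None of these positions lies in the seed. On the plus strand, let-7b-5p lies at chr15:85707325-85707346. On the minus strand, let-7d-5p lies at chr13:48536078-48536099 and let-7i-5p at chr10:122985698-122985719.

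The hairpin precursors of the let-7 members are shown because LIN28 binds them in the loop, where the letters GGAG are its known contact. GGAG is in capitals where it lies in the loop between the annotated arms.
pre-let-7b: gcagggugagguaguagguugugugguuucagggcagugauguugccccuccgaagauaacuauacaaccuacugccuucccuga
pre-let-7d: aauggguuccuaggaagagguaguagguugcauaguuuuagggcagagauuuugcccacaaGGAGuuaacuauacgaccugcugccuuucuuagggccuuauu
pre-let-7i: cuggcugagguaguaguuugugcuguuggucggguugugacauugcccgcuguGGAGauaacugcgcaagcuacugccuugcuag
The hairpins of let-7d and let-7i hold GGAG in the loop, read on the strand of the microRNA alone, and that of let-7b does not. Among the let-7 and miR-98 hairpins with both arms annotated, 8 of 11 (72.7%) hold it, against 52 of 644 hairpins of all microRNAs (8.07%). A match describes letters, not binding.

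Signals were judged against a reference level on the same array, drawn from genes that neural cells should lack. This level is the 95th percentile of 1407 vomeronasal and olfactory receptor probe sets, and it was 5.63, 5.53 and 5.71 on arrays 1, 2 and 3 on the log2 scale. A gene is called above it where limma's one-sided moderated test gave a Benjamini-Hochberg adjusted p under 0.05 over all genes. By this rule 59.1% of all genes were called. The members' count was 6 of 8, with a median margin over the reference level of 0.36 against 0.76 over all genes. The ± after a margin is the SD of signal minus reference level over the arrays. For a gene with equal values on all arrays it is the SD of the reference level alone (0.09), not of the gene. Probes bind with different strength, so members are not ranked by signal. The values are RMA log2 signals with n = 3, and the number of arrays limits their precision.

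**Figure D1:**
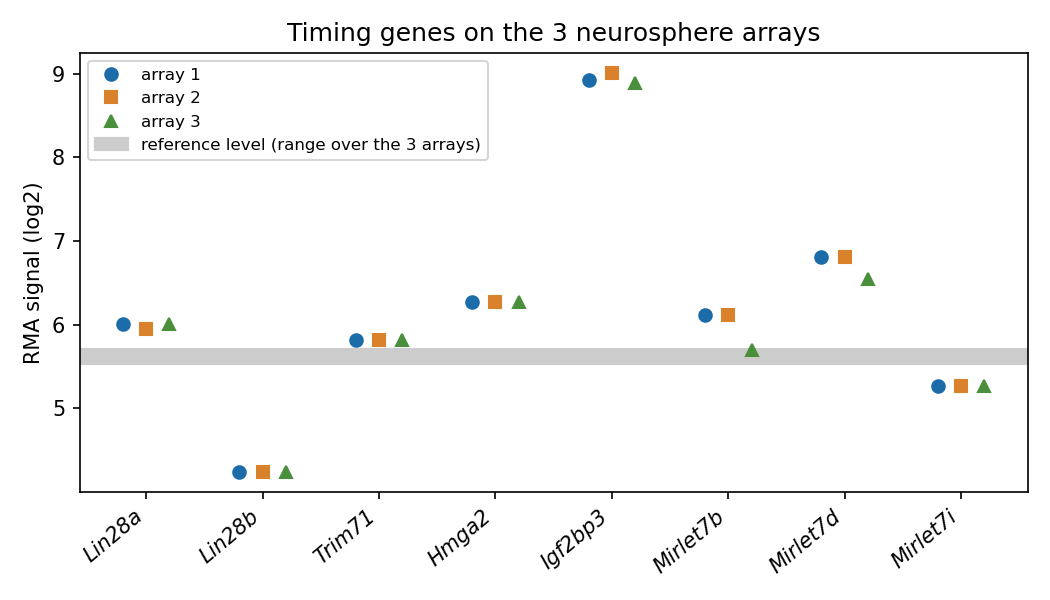
RMA signal (log2, y axis) of the 8 measured timing genes (x axis) on arrays 1 (circle), 2 (square) and 3 (triangle), with the range of the reference level over the arrays in grey. Igf2bp3 lies between 8.89 and 9.01, Lin28b and Mirlet7i lie under the grey band on every array, and heights of different genes are not comparable.

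Igf2bp3, an oncofetal mRNA-binding protein (probe set 17466641), was the one member called under each of 4 reference levels. It had 8.92, 9.01 and 8.89 on the 3 arrays, a mean of 8.94 ± 0.062 (SD, n = 3). Every array lay over the reference level, by 3.32 ± 0.15 on average. Its margin was 2.54 over the 99th percentile of the receptors and 2.50 over keratin-associated, defensin and bitter taste receptor genes.

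Lin28a, the LIN28 form of pluripotent cells (probe set 17431166), gave 6.01, 5.95 and 6.01 on the 3 arrays. The arrays hardly differed, and each was over its reference level, by 0.36 ± 0.065 on average (limma adjusted p = 2.72e-06). Lin28b, the paralog that also blocks let-7 maturation (probe set 17240670), gave 4.24 on every array. That is under the reference level on all 3, with a margin of -1.38 ± 0.09, a place shared by 35.9% of all genes. Lin28a was not called at the 99th percentile of the receptors, where its margin was -0.41.

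Trim71, the LIN41 ubiquitin ligase and a let-7 target (probe set 17531893), gave 5.81 on every array. Its margin of 0.19 ± 0.09 passed the test with an adjusted p of 0.0115 (limma), on all 3 arrays but by little. Leaving out replicate 1 ended the call (limma adjusted p = 0.182), and so did leaving out replicate 2 (limma adjusted p = 0.0737). Nor did a one-sample t test on its own 3 margins call it (adjusted p = 0.0586). As its signals were equal, the spread of those margins is the reference level's, so that test does not measure Trim71's own variation. The other TRIM-NHL genes Trim2 (8.02), Trim3 (8.49) and Trim32 (8.70) were all called, beside 59.1% of all genes. Trim32 is known to raise let-7 activity in neural precursors.

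Hmga2, the architectural DNA-binding protein of young stem cells (probe set 17245422), gave 6.28 on every array. It lay 0.65 ± 0.09 over the reference level (limma adjusted p = 4.42e-16), over it on all 3 arrays. That ± is the spread of the reference level, so neither it nor the p-value measures a spread of Hmga2. The 99th percentile of the receptors lay above it, with a margin of -0.12, and the call ended there. A probe set for the pseudogene Hmga2-ps1, named after its value was seen, gave 5.34 on every array, and how far the copies share probes was not tested.

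Among the let-7 members, Mirlet7d (probe set 17292325) gave 6.80, 6.80 and 6.54. Arrays 1 and 2 were equal and array 3 was lower, and all 3 were over the reference level, by 1.09 ± 0.23. Mirlet7b (probe set 17313860) gave 6.12, 6.12 and 5.70. It repeated that order, and on array 3 it was just under the reference level of 5.71. Its mean margin of 0.36 ± 0.32 passed limma's test on the shared spread (adjusted p = 4.40e-06), but not without replicate 1 (limma adjusted p = 0.0576). A one-sample t test on its own 3 margins did not call it (adjusted p = 0.166). Without replicate 3 its margin was 0.54. Mirlet7i (probe set 17245585) gave 5.27 on every array, under the reference level on all 3 with a margin of -0.35 ± 0.09.

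These values do not say how much mature let-7 the cells held. The probe sets carry the names of microRNA genes, and signal from the primary transcript, the hairpin and the mature microRNA cannot be told apart. Of 461 other microRNA genes, 26.7% were called, which is the nearer background for these members. The 95th percentile of those genes' probe sets was 7.91, 7.89 and 8.07 on the 3 arrays, above the values of all 3 let-7 members. Their median was 4.97, 4.88 and 4.91, below the values of all 3 let-7 members.

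**Figure D2:**
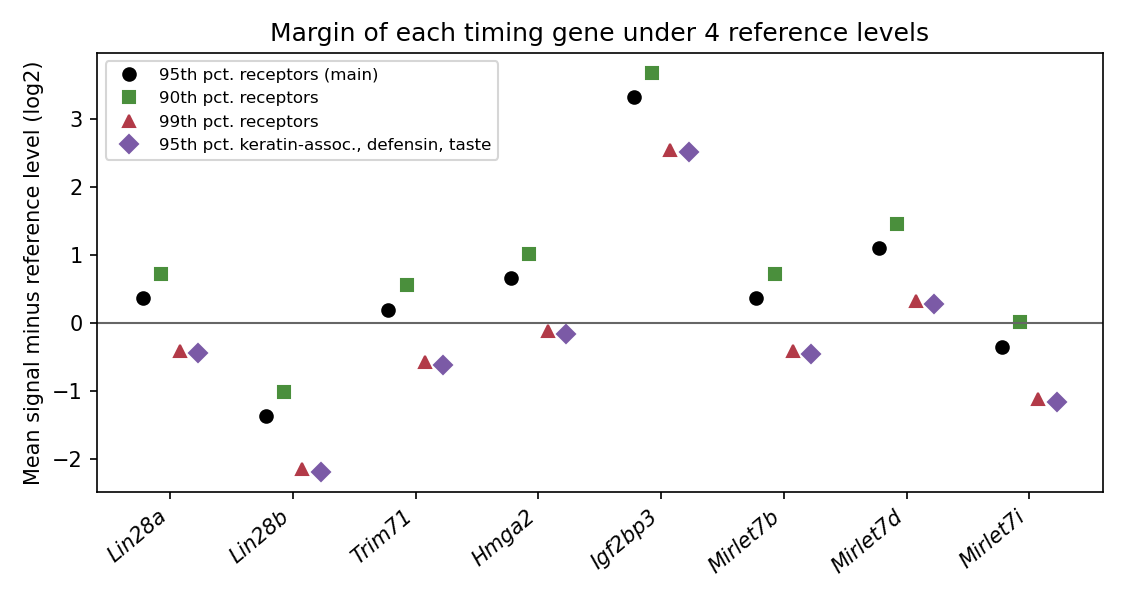
Mean signal minus reference level (log2, y axis) of each timing gene over 4 reference levels: the 95th (main), 90th and 99th percentile of the receptors, and the 95th percentile of keratin-associated, defensin and taste receptor genes. Igf2bp3 stays over 2.5, Lin28b stays under 0, and Lin28a, Trim71, Hmga2 and Mirlet7b lie over 0 at the main level and under 0 at the 99th percentile.

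Repeated with the 99th percentile of the receptors as the reference, the test called 1 of 8 members, Igf2bp3, and 44.9% of all genes. With keratin-associated, defensin and taste receptor genes it again called 1 of 8, and 43.5% of all genes. The calls of Lin28a, Trim71, Hmga2, Mirlet7b and Mirlet7d ended under both, and their margins over the main reference level were at most 1.09.

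The other let-7 genes and the microRNAs of their clusters gave a mixed picture. let-7c-1 lies beside miR-99a, 656 bases from it, and let-7a-2 lies on chromosome 9 between miR-100 and miR-125b-1. miR-125 is known to repress Lin28 and Trim71 as well. Of 17 such genes 14 were measured, with a median margin of -0.12. Called were 7 of the 14 (50%, against 59.1% of all genes and 26.7% of other microRNA genes). The mature forms of these neighbours carry other seeds, again in capitals:
miR-99a-5p: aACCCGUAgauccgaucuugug
miR-125b-5p: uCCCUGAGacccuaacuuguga

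Called genes of the family were Mirlet7c-1 (7.27 ± 0.30), Mirlet7a-1 (6.40 ± 0.37), Mirlet7c-2 (6.40 ± 0.22) and Mirlet7e (5.97 ± 0.14). Mirlet7e had a second probe set at 4.11 on every array, so its probe sets disagree. Its call ended in a one-sample t test on its own 3 margins (adjusted p = 0.0974). Not called were Mirlet7g (5.03 ± 0.070), Mirlet7a-2 (4.97 ± 0.027), Mir98 (4.50 ± 0.062), Mirlet7f-1 (4.40 ± 0.19) and Mirlet7f-2 (1.80 ± 0.055). Among the cluster partners Mir99a (8.27 ± 0.23), Mir99b (7.84 ± 0.40) and Mir125b-1 (6.82 ± 0.49) were called, and Mir100 (4.77) and Mir125b-2 (2.53) were not. At the 99th percentile of the receptors 3 of the 14 were called, Mir99a, Mir99b and Mirlet7c-1, beside 44.9% of all genes. The call of Mir125b-1 ended there (limma adjusted p = 0.0614) and with the keratin-associated, defensin and taste receptor genes (limma adjusted p = 0.158). It ended too in the t test on its own margins (adjusted p = 0.0589). Mir99a was the only one of the 14 also called over the 95th percentile of other microRNA genes, a comparison added after the data were seen that called 29% of all genes.

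Neighbouring genes showed both like and unlike values between arrays. Mirlet7c-2 lies 621 bases from Mirlet7b, and gave 6.52, 6.52 and 6.14, the same order as its neighbour. Array 3 minus the mean of arrays 1 and 2 was -0.38 for Mirlet7c-2 and -0.42 for Mirlet7b. Mirlet7d shares a cluster with Mirlet7f-1, 1714 bases away, and Mirlet7a-1. That difference was -0.26 for Mirlet7d and -0.21 for Mirlet7f-1, which lay under the reference level. Mirlet7a-1 (6.46, 6.00 and 6.74) was highest on array 3. Mir99a (8.37, 8.44 and 8.01), Mirlet7c-1 (7.29, 7.56 and 6.96) and Mir125b-1 (7.08, 7.12 and 6.26) were lowest on array 3, and Mir99b (7.82, 7.45 and 8.24) was highest there.

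Array 3 was the lowest for 3 of 8 members (Igf2bp3, Mirlet7b and Mirlet7d) and for 6 of 14 other family genes. The same held for 21.7% of all genes, 32.9% of called genes and 15% of other microRNA genes. Those 3 members were all called, so 32.9% is a nearer share for them than 21.7%. With 3 of 6 called members, no difference from that share can be told. Array 3 also had the highest reference level, 5.71. The host transcripts Mir99ahg (9.32, 9.32 and 9.21) and Mir100hg (6.26, 6.43 and 6.02), named after their values were seen, were lowest on array 3 too.

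**Figure D3:**
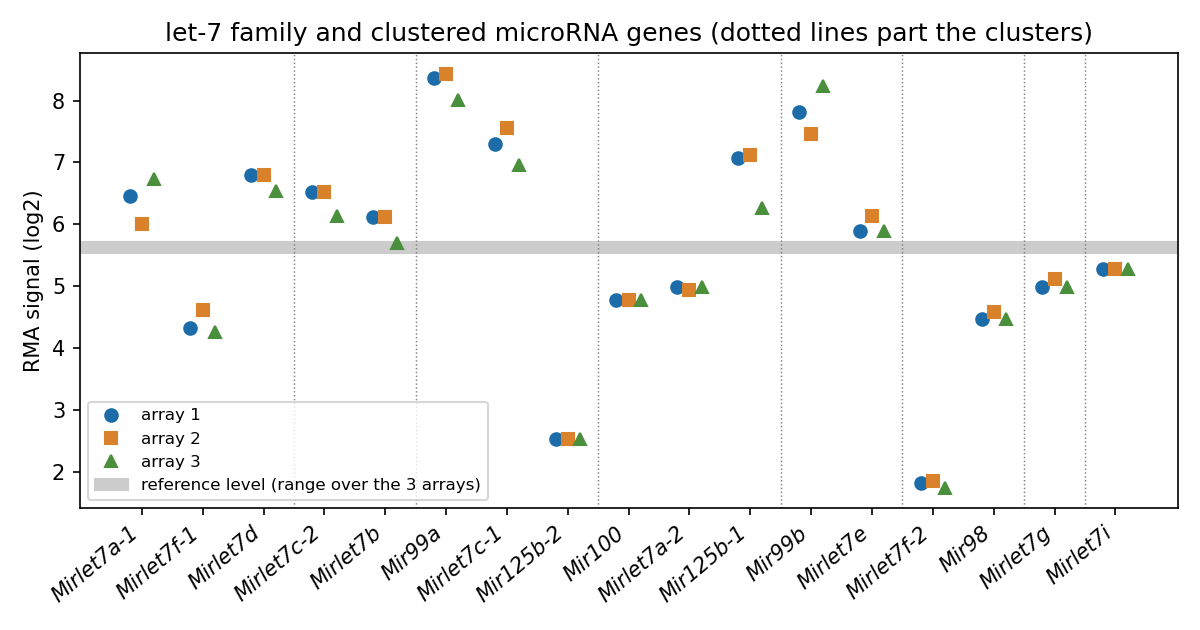
RMA signal (log2, y axis) of the let-7 family and its clustered microRNA genes (x axis, dotted lines between clusters) on arrays 1 (circle), 2 (square) and 3 (triangle), with the range of the reference level in grey. Mirlet7b and Mirlet7c-2 share an order with array 3 lowest, while Mirlet7a-1 and Mir99b are highest on array 3.

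Whether a member varied between arrays more than genes of like signal was tested by the ratio of its residual variance to limma's trended prior variance. The values of Lin28b, Trim71, Hmga2 and Mirlet7i were equal on the 3 arrays, as were those of 39.4% of all genes, and could not be tested. An SD of 0 understates the true spread. None of the other 4 members passed (F test on limma's variances): Mirlet7b had a variance ratio of 10.4 (adjusted p = 0.764), Mirlet7d 6.01, Igf2bp3 4.75 and Lin28a 0.17. Of 13451 genes tested by limma's variance ratio, 0 passed after adjustment (0%) and 132 had an unadjusted p under 0.05 (0.981%). Even Mir99b, with a ratio of 88.9, did not pass (F test, adjusted p = 0.764). As the test called no gene, it does not show that the members varied no more than genes of like signal. Why it called none was not tested.

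The genes with array profiles most like those of the varying members were named by the root mean square difference of centred log2 values over the 3 arrays. For Mirlet7d they were Tiam2, Eola1 and Snapc1, and for Mirlet7b Tlr6, Zfp811 and Spa17, with differences of at most 0.00524. Such likeness was common over only 3 arrays. Of 13103 called genes, 600 lay within 0.05 of Mirlet7d and 99 within 0.05 of Mirlet7b.

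The enzymes that make, tag and use let-7 were called. Of 19 processing and turnover genes 16 were measured and 16 called (100%, against 59.1% of all genes). Their median margin was 4.05 against 0.76 over all genes. Drosha (10.03 ± 0.039), which cuts the primary transcript, Xpo5 (9.65 ± 0.042), which exports the hairpin, and Dicer1 (9.89 ± 0.008), which cuts it to the mature form, were among them. So were the DICER partners Tarbp2 (6.87) and Prkra (7.60). With keratin-associated, defensin and taste receptor genes as the reference 15 of 16 were called, and Tarbp2 was not (margin 0.43, limma adjusted p = 0.113). The arm that destroys LIN28-bound hairpins was called as well: Tut4 (9.73 on every array) and Tut7 (9.77 ± 0.053) add the uridine tail, and Dis3l2 (9.21 on every array) degrades the tailed RNA.

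Of 20 other genes reported as let-7 targets 16 were measured and 16 called (100%, against 59.1% of all genes), with a median margin of 3.18. The count was 12 of 16 at the 99th percentile of the receptors, beside 44.9% of all genes. It was again 12 with the keratin-associated, defensin and taste receptor genes, beside 43.5%, and 15 without replicate 1 or replicate 2. Cyclin gene Ccnd2 (11.54 on every array), Ccnd1 (9.01, 9.06 and 8.93), the kinase gene Cdk6 (8.37 ± 0.14) and the phosphatase gene Cdc25a (8.60) drive the cell cycle. Myc (10.03) and the GTPase gene Nras (10.06) were called, as was the ubiquitin-conjugating gene Cdc34 (8.15 ± 0.20). Mycn (6.24 ± 0.078) lay 0.62 over the reference level and -0.16 from the 99th percentile of the receptors, where its call ended.

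Of 8 measured genes reported downstream of Hmga2, 6 were called (75%, against 59.1% of all genes). HMGA2 is known to lower expression from the Cdkn2a locus, whose products stop the cell cycle, partly through Junb. Cdkn2b gave 8.18 on every array, Junb 8.16 ± 0.040, and Cdkn2a 6.75 on every array, whose call ended at the 99th percentile of the receptors (adjusted p = 0.114). Ccna2 (10.34 ± 0.043), Ercc1 (8.78) and Snai2 (6.46) were called, while Snai1 (5.23) and Twist1 (5.19), factors of mesenchymal change, were not. Snai2 lay 0.06 over the 99th percentile, where its call ended too, leaving 4 of 8, beside 44.9% of all genes.

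Among other high mobility group genes 6 of 7 measured were called (85.7%, against 59.1% of all genes), with a median margin of 3.43. They were Hmgb1 (11.32), Hmgb2 (8.35 ± 0.15), Hmgb3 (9.30), Hmgn1 (9.59), Hmgn3 (9.06) and Hmgn5 (6.72 ± 0.19). Hmgb4, a testis gene, gave 5.13 and was not called. Under both stricter references, which called 44.9% and 43.5% of all genes, 5 of 7 were called. Hmgn5 was not at the 99th percentile of the receptors (limma adjusted p = 0.152) or with the keratin-associated, defensin and taste receptor genes (0.297). These architectural proteins bind DNA or nucleosomes with little sequence preference.

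The partners and client RNAs of IGF2BP proteins were called together with Igf2bp3. Of 10 partners 9 were measured and 9 called (100%, against 59.1% of all genes), with a median margin of 4.65. Syncrip (10.39), Hnrnpu (12.39), Ybx1 (9.18 ± 0.038) and Dhx9 (11.12) belong to the complex that protects the coding-region determinant of Myc mRNA. Elavl1 (11.17), Pabpc1 (7.79), Stau1 (10.16) and Fmr1 (9.85) bind, stabilise or transport mRNA. Of 10 client RNAs 7 were measured and 7 called (100%, against the same 59.1%). Among them were Actb (10.72 ± 0.040), Btrc (10.69), Cd44 (8.35), Mapt (8.12) and Mapk4 (7.70). Igf2, the growth factor for which the family is named, gave 6.07, 6.07 and 6.21. It lay 0.50 over the reference level and -0.28 from the 99th percentile of the receptors, where its call ended. Mural and fibroblast markers, cells in which Igf2 is known to be high, were called in 4 of 6 cases, and their part in its value was not tested.

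**Figure D4:**
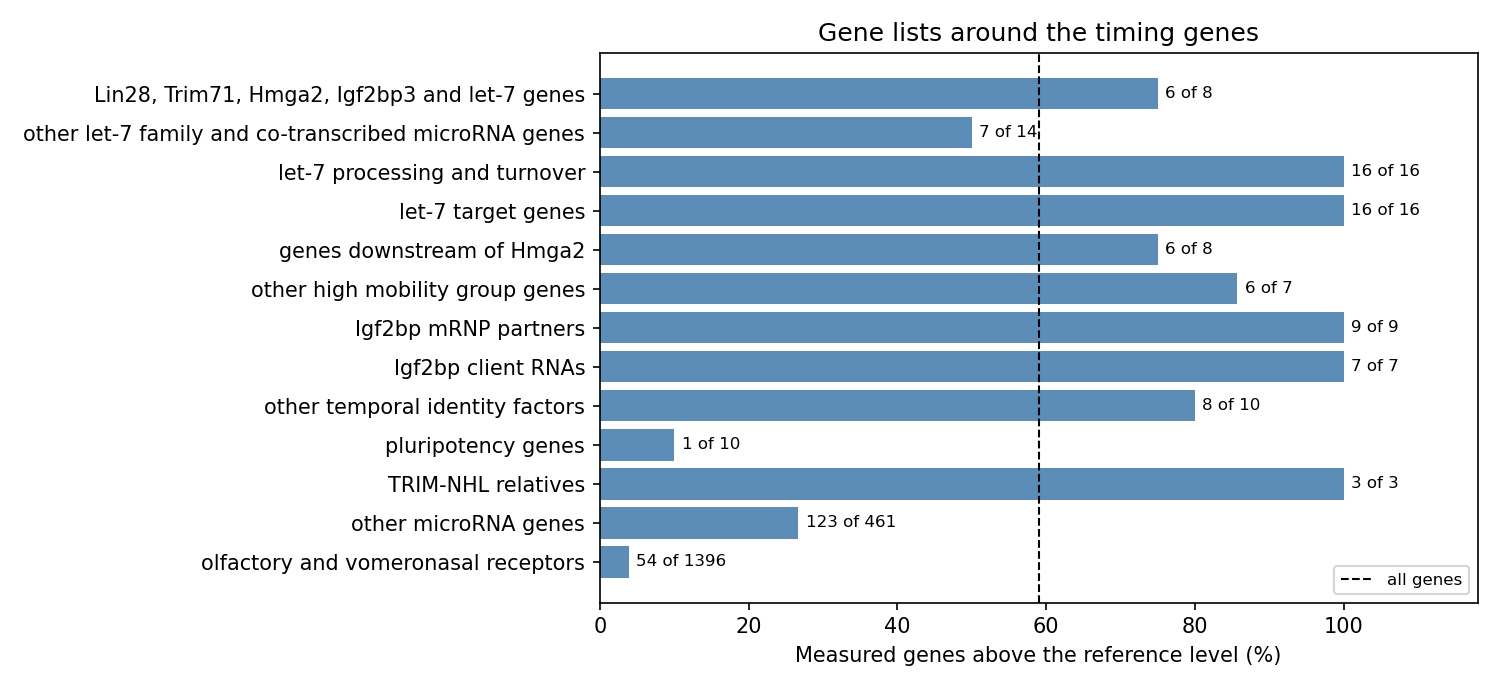
Percent of measured genes called above the reference level (x axis, starting at 0) in each gene list (y axis), with counts beside the bars and the 59.1% of all genes as a dashed line. At the main reference level the processing, target, mRNP partner, client and TRIM-NHL lists reach 100%, and pluripotency genes reach 10%.

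Of other genes that set early or late competence of neural precursors, 8 of 10 measured were called (80%, against 59.1% of all genes). Their median margin was 2.88. The late, gliogenic factors Nfia (11.75), Nfib (11.87), Nfix (9.32), Zbtb20 (10.30) and Sox9 (11.88) had the same value on every array. Nr2f1 (7.69) and Nr2f2 (6.59 ± 0.067), which end the early neurogenic phase, were also called, as was Nr6a1 (6.20). At the 99th percentile of the receptors 6 of 10 were called, beside 44.9% of all genes. Nr2f2, with a margin of 0.19 (limma adjusted p = 0.38), and Nr6a1 were not, nor were they with the keratin-associated, defensin and taste receptor genes as the reference. Ikzf1 (4.94), an early-competence factor, was not called. Casz1, a late factor in retinal precursors, gave 5.36, 5.36 and 5.78, over the reference level on array 3 alone, and was not called.

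Genes of the pluripotent state, in which Lin28a and Trim71 are high, were called in 1 of 10 cases (10%, against 59.1% of all genes). Their median margin was -0.24. Fgf4 (6.26 ± 0.056) was the one called, and its call ended at the 99th percentile of the receptors. Pou5f1 (5.57 ± 0.33), Nanog (5.64) and Sall4 (5.56) lay near the reference level, with margins of -0.057, 0.018 and -0.066. With the median over its 2 probe sets Sall4 had a margin of -0.77. Utf1 (5.41), Dnmt3l (5.37), Esrrb (5.17), Zfp42 (4.86) and Tdgf1 (4.80) lay under it on every array, with margins from -0.22 to -0.83. With the 90th percentile of the receptors as the reference, which calls 66.7% of all genes, 5 of the 10 were called.

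The label of the cultures was checked against markers. All 9 measured neural precursor markers were called (8.50 to 13.73), as were all 8 markers of glial and neuronal lineages (9.22 to 12.91). Mural and fibroblast markers were called in 4 of 6 cases (66.7%, against 59.1% of all genes): Acta2 (7.45), Rgs5 (7.25), Pdgfrb (6.99) and Col1a1 (6.24) were called, and Dcn (4.70) and Lum were not. Microglia markers were called in 2 of 6 cases (means from 4.27 to 6.66), ependymal markers in 2 of 6, choroid plexus markers in 1 of 6, endothelial markers in 0 of 6 (4.84 to 5.48) and red blood cell markers in 0 of 4 measured by limma's test. Their part in the members' values was not tested. In these bulk samples fewer cells of a type and less RNA per cell cannot be told apart.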

How the data were processed

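The deposited values are log2 signals of 41345 probe sets. Per the submitters' processing notes the authors used RMA, a method that subtracts background, scales arrays to each other and combines the probes of a set. Neither its version nor its options were found in the labels. Genes were named from the platform annotation: 23521 probe sets carried 1 symbol, 1814 several and 16010 none, which left 22180 genes. The 1082 genes with several probe sets took the one with the highest mean. Array medians were 5.87, 5.85 and 5.86.

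Detection and variance tests were run in R 4.3.3 with limma 3.58.1 (intercept, eBayes with an intensity trend) over all genes. They were also run on simulated data. For detection these had a constant reference level, no equal values and no unchanged gene near that level, so they do not test calls close to it. The shared spread decides the p-values. Values within 1e-06 were taken as equal. Figures used matplotlib 3.10.9. No genome was used, and microRNA positions are those of the RefSeq sequence table.

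The members and lists were chosen with earlier results of these data known. The text names all members, up to 8 called and 8 uncalled genes of each pathway list in the order written, and the 3 most alike profiles of called members with a range over 0.2. Genes outside this rule are marked. Alternatives changed the reference genes or percentile, probe set choice, scaling, low-value filter, model and replicates.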

Additional observations from a re-analysis of the deposited data

How the results depend on the processing

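The reference level was the choice that moved most results, while scaling, the intensity trend and the low-value filter ended no member's call. The filter removed Lin28b, which then had no value. At the 99th percentile of the receptors, which called 44.9% of all genes, 1 member was called. So were 3 of the other let-7 and cluster genes and 0 of the pluripotency genes. Margins then turned negative for Lin28a (-0.41), Trim71 (-0.59), Hmga2 (-0.12), Mirlet7b (-0.42), Mirlet7c-2 (-0.0025), Mirlet7e (-0.43), Mycn (-0.16), Igf2 (-0.28), Nr6a1 (-0.20), Nanog (-0.76) and Fgf4 (-0.14). With keratin-associated, defensin and taste receptor genes the same 3 counts were 1, 3 and 0, beside 43.5% of all genes. Margins there were -0.45 for Lin28a, -0.62 for Trim71, -0.16 for Hmga2, -0.46 for Mirlet7b, -0.035 for Mirlet7a-1, -0.039 for Mirlet7c-2, -0.46 for Mirlet7e, -0.20 for Mycn, -0.32 for Igf2, -0.24 for Nr6a1, -0.79 for Nanog and -0.18 for Fgf4. At the 90th percentile 5 pluripotency genes were called, and margins turned positive for Mirlet7i (0.0051), Casz1 (0.23), Pou5f1 (0.30), Sall4 (0.29), Utf1 (0.14) and Dnmt3l (0.10). A higher or lower level moves every margin one way by construction.

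Over the 95th percentile of other microRNA genes, an alternative chosen after seeing the data, 1 of the other family genes was called. Margins were then -1.98 for Mirlet7b, -1.24 for Mirlet7d, -1.56 for Mirlet7a-1, -0.69 for Mirlet7c-1, -1.56 for Mirlet7c-2, -1.99 for Mirlet7e, -0.12 for Mir99b and -1.14 for Mir125b-1. With the median over probe sets Mirlet7e had -0.58. Leaving out 1 replicate in turn left 4 to 6 members called, the 4 without replicate 1, and 106 to 148 genes differing between arrays, against 0 with all arrays. The cause of that was not tested. Over these runs the margin of Pou5f1 lay between -0.137 and 0.0836 and that of Nanog between -0.0257 and 0.0609, the sign of each turning without replicate 2. No paired analysis was possible because the 3 arrays form 1 group. With 3 arrays and no probe-level files used here, signals near the unspecific level cannot be resolved.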
